A study of Homo sapiens with 3 samples.

Results

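The genes described here encode the structural subunits of the proteasome, with its assembly chaperones and 1 inhibitor, in HT-29 cells treated with interferon-γ (IFN-γ). They were chosen by symbol: every PSMA, PSMC, PSMD, PSMF and PSMG gene, and PSMB1 to PSMB4 of the beta ring. The rule found 30 genes, read by 48 probe sets, among 11963 genes named on the array by probe sets with a single symbol. They comprise 6 PSMA, 4 PSMB, 5 PSMC, 12 PSMD, 1 PSMF and 2 PSMG genes. The label of core, lid and base subunits holds for most of them, but PSMD5, PSMD9, PSMD10, PSMG1 and PSMG2 are assembly chaperones and PSMF1 is a regulator. PSMA6 had only probe sets that list a further gene and was left unnamed. The brighter of them had 7135, 7134 and 8459, and the dimmer 634, 662 and 447. PSMA8, PSMC5, PSMD7, PSMD13, PSMG3 and PSMG4 were not analysed here.

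HT-29 is an established human colon adenocarcinoma line. All 3 arrays measured cells given 200 U/ml IFN-γ for 24 h, in cultures that the series describes as biological replicates of 1 group. They had been plated at 50000 cells per cm2 for 24 h and kept in 10% serum and 5% CO2. No untreated cells were analysed here, so each value is a level in treated cells and none of them is a response to IFN-γ. All 12 colon epithelial markers were detected by limma's adjusted p, beside 41.2% of all genes. Of the endothelial and fibroblast markers, 0 of 5 and 0 of 5 were detected, with 0 in either list at an unadjusted p under 0.05. Of 10 leukocyte markers 1 was detected, the lysozyme gene LYZ with 6777, 6612 and 14391 in replicates 1, 2 and 3, while the pan-leukocyte marker PTPRC had 32.6, 4.77 and 10.9. The summed signal of the leukocyte list ran between 7458 and 15190, that of the endothelial list between 191 and 349 and that of the fibroblast list between 277 and 377. The median signal per array lay between 137.2 and 144.5. With 3 arrays, all values here are of limited precision.

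The proteasome is the main protease of the cytosol and nucleus and degrades proteins tagged with ubiquitin. Its core particle is a barrel of stacked rings: outer rings of alpha subunits form the gate, and inner rings of beta subunits hold the proteolytic sites. The regulatory particle caps the barrel. Its base unfolds substrates with a ring of ATPases, and its lid removes the ubiquitin chain. In antigen presentation the proteasome cuts the peptides that MHC class I displays, and IFN-γ is known to bring in alternative catalytic subunits and an alternative activator, while the subunits described here are shared by both forms of the particle.

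The names of the deposited values looked displaced, so the order of the names was checked on these genes first. Under an order inferred from the data, 44 of the 48 proteasome probe sets lay above the background limit on all 3 arrays. With the names as deposited, 35 of the 48 lay above the same limits. Over all 19065 single-symbol probe sets those shares were 38.4% under the inferred order and 38.2% as deposited. The 3 probe sets of PSMA1 had mean signals of 11617, 10111 and 11748 under the inferred order, and 806, 264 and 102 as deposited. The first pair of probe sets of a gene differed by a median of 2.37 log2 units in the inferred order and 1.75 as deposited over the 14 proteasome genes with several, whereas over 4310 genes the medians were 1.26 and 2.23. The probe sets of a gene were thus closer in the inferred order over all genes, but further apart within these 14. All values below use the inferred order and depend on it.

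NFE2L1 and NFE2L2 are transcription factors that bind antioxidant response elements, and NFE2L1 is known to raise proteasome genes when proteasome activity falls short. The promoters are shown because that element is the known common site of these genes. RefSeq windows of 250 bases before to 50 after the start (GRCh38.p14) were found for 27 of the 30 genes, and PSMA7, PSMB1 and PSMD4 were not matched. The antioxidant response element core, searched as TGACNNNGC on both strands, was present in 10 of 27 genes (37%), beside 16.1% of 27305 genes in the table. It lay wholly before the start in 8 of the 10. Those 8 stretches follow, 5′ to 3′ on the strand of the gene, with the match in capitals and up to 30 bases on either side.
PSMA4 (chr15:78540630-78540698, plus strand, core particle): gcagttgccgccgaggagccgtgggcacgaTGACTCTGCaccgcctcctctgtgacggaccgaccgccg
PSMB3 (chr17:38752607-38752675, plus strand, core particle): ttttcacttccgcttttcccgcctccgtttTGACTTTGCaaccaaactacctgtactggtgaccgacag
PSMD12 (chr17:67366704-67366772, minus strand, lid): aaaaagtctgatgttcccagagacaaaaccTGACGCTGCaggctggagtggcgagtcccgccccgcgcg
PSMD3 (chr17:39980740-39980806, plus strand, lid): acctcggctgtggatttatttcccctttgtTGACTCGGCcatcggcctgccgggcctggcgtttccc
PSMD5 (chr9:120843018-120843086, minus strand, base chaperone): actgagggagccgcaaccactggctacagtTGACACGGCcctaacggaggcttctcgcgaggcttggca
PSMD9 (chr12:121888611-121888726, plus strand, base chaperone): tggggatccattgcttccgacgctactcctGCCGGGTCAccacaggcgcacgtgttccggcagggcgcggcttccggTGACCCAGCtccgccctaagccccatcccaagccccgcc
PSMG1 (chr21:39183596-39183664, minus strand, assembly): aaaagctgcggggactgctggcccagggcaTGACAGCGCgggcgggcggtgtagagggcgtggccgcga
PSMG2 (chr18:12658669-12658737, plus strand, assembly): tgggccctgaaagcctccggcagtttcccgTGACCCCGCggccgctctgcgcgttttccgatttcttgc

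PSMD9 holds 2 matches, and the first of them reads on the opposite strand. The match of PSMA4 lies in the window of 1 of its 3 RefSeq starts, and that of PSMG2 in the window of 1 of its 2. PSMC4 and PSMD1 had their match after the start, and PSMD3 had a second one there.

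Other promoter motifs were found in these windows as well. The CCAAT box, searched as CCAAT, was present in 14 of 27 genes (51.9%), beside 39.7% of all genes in the table. The core bound by ETS factors, searched as CCGGAAG, was present in 9 (33.3%), beside 12.2%, and the GC box, searched as GGGCGG, in 18 (66.7%), beside 48.3%. Both strands were searched, and matches of different motifs may overlap. The median GC content was 62.2% over the windows of the proteasome genes and 58.7% over all 35116 windows, and its part in these shares was not tested. For 6 of the 27 genes (22.2%) the window overlapped that of another gene on the opposite strand, beside 18.9% of all genes. Among those neighbours were MRPL32 for PSMA2, ATG4A for PSMD10, HPD for PSMD9 and CEP76 for PSMG2. A match is a description of the letters in the window and shows no binding.

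**Figure D1:**
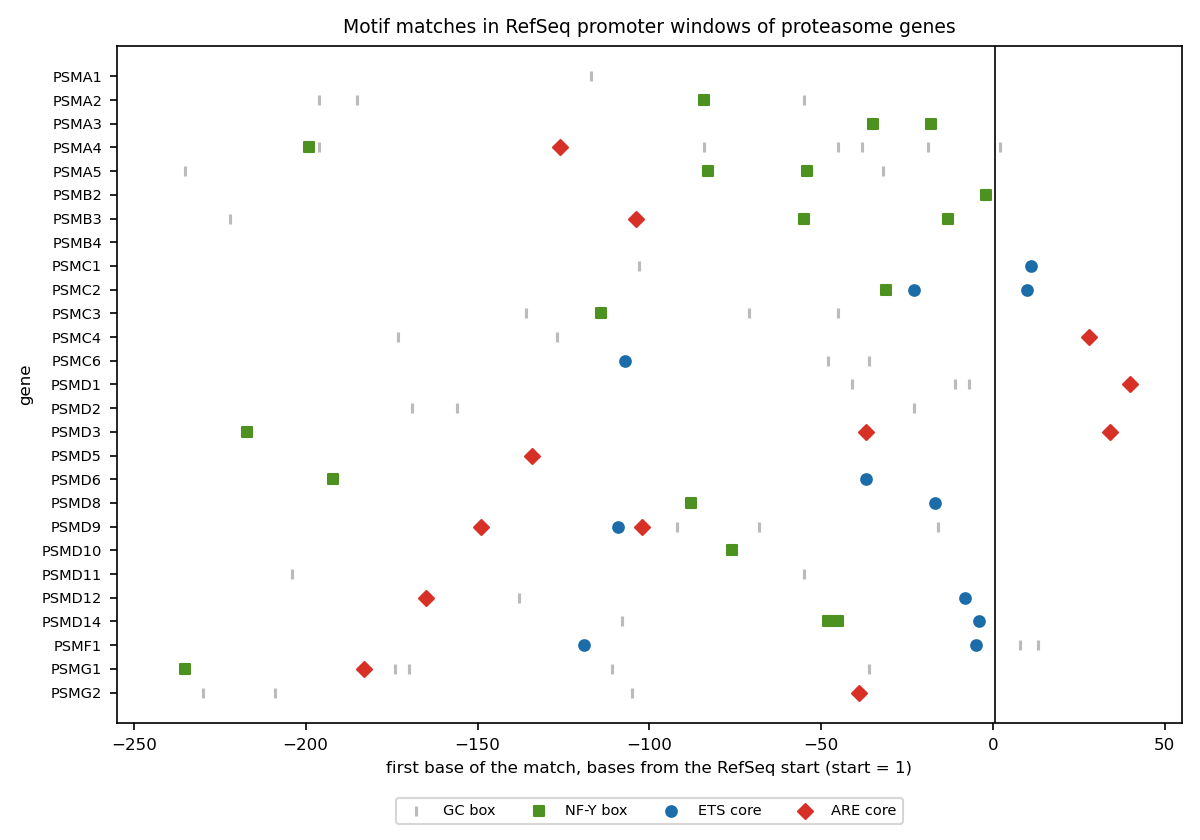
Position of the first base of each match, in bases from the RefSeq start (start = 1), in the promoter windows of the 27 matched proteasome genes, with 1 row per gene and all its windows drawn together. Antioxidant response element (ARE) cores are found in 10 genes, ETS cores in 9, CCAAT boxes (labelled NF-Y box) in 14 and GC boxes in 18.

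All 30 proteasome genes were detected in the treated cells. A gene counted as detected when its log2 signal exceeded a background limit set on each array, by limma's one-sided test with Benjamini-Hochberg adjustment over all genes at 0.05. That limit was the 95th percentile of the signals of 66 genes known from tissues other than the colon. The limits were signals of 212.9, 234.3 and 170.7 in replicates 1, 2 and 3. Of all genes 41.2% were detected. The proteasome genes lay between 2.27 and 6.11 log2 units over the limit, with a median of 4.37, beside a median of -0.08 over all genes, and their adjusted p in limma ran between 1.03e-07 and 2.01e-06. All 30 were also detected without replicate 1, without replicate 2 and without replicate 3, beside 37.9%, 41.3% and 40.4% of all genes. They were likewise detected with the 90th percentile as the limit (46.0% of all genes), with another list of restricted genes (37.7%), after quantile normalization (41.0%), with a pseudocount (41.3%) and without a variance trend (39.4%). With the median over probe sets 29 were detected, beside 38.0% of all genes, and under a uniform displacement of the names 28, beside 37.2%. For part of these genes, PSMA1 and PSMG2 among them, that displacement reads the same signals as the inferred order. It is no separate check of those genes. Without suffixed probe sets 18 of 20 were detected, beside 36.9%. With the names as deposited the limits were 1628, 1500 and 1600, and 9 of the 30 passed, beside 9.56% of all genes. Signals of different genes come from different probes, so the proteasome genes were not ranked against each other, and only bins of brightness were used below. For 15 of the 30 the probe set used has a suffix, and PSMA1, PSMA7 and PSMD4 were read from designs that may cross-hybridise (_x_at).

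**Figure D2:**
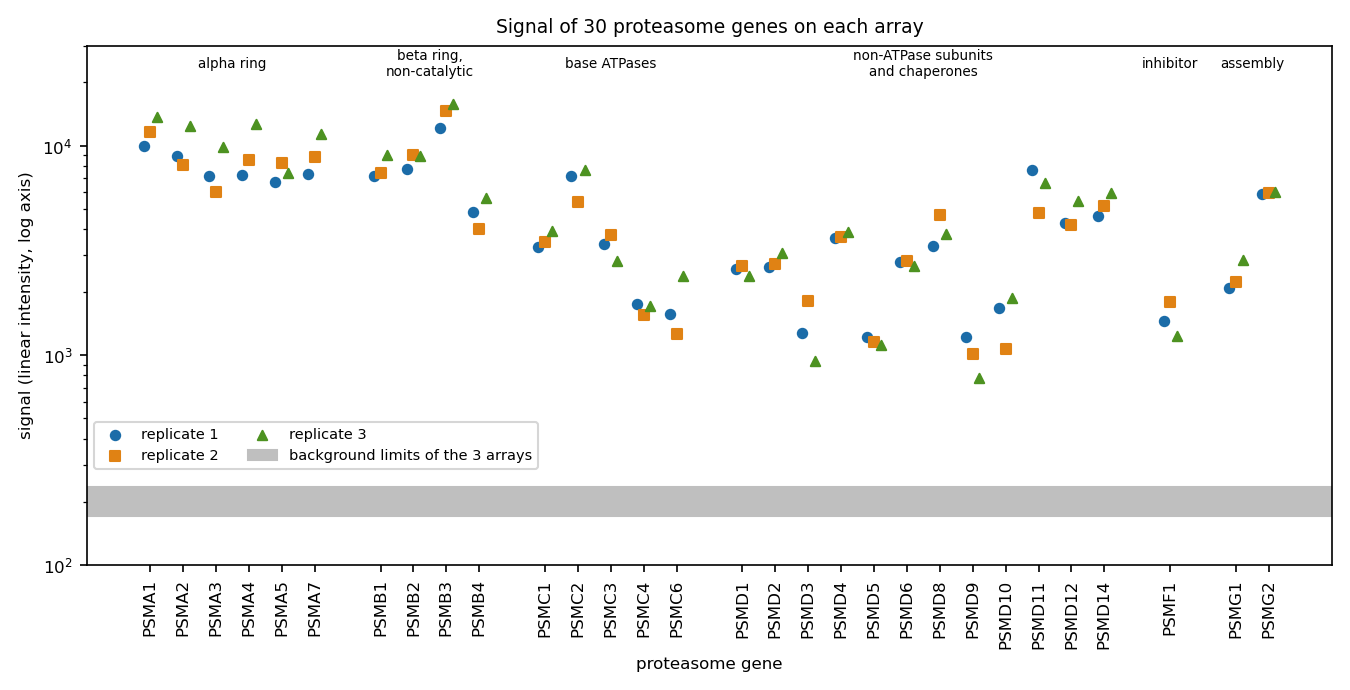
Signal of each proteasome gene (log axis, linear intensity) in replicates 1, 2 and 3, by group, with the band of background limits between 170.7 and 234.3. The mean signals of the 30 genes lie between 1001 and 14175, and each point lies above the band.

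Subunits of the alpha ring, the gate of the core particle, were detected for all 6 measured genes. PSMA1, an alpha subunit, had signals of 9929, 11604 and 13711 in replicates 1, 2 and 3. Its log2 signal was 5.83 ± 0.29 over the limit (n = 3 arrays, SE from limma's fit, which shares variance across genes). PSMA2 had 8879, 8069 and 12440. PSMA3 had 7133, 6022 and 9850. In PSMA1, PSMA2 and PSMA3 the array of replicate 3 was the highest. PSMA4 had 7259, 8520 and 12683, the largest spread of this group with an SD of 0.41 log2 units. PSMA7 had 7329, 8818 and 11301. PSMA5 had 6667, 8208 and 7377, and with an SD of 0.15 it was the alpha subunit with the smallest spread and the only 1 of the 6 that was not highest in replicate 3. The median SD of the alpha subunits was 0.32 log2 units, beside 0.29 over all detected genes.

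Of the beta ring, 4 subunits without proteolytic sites were measured, and all 4 were detected. PSMB1 had 7187, 7407 and 8977 in replicates 1, 2 and 3. PSMB2 had 7756, 8968 and 8867, with the smallest SD of this group at 0.12 log2 units. PSMB3 had 12126, 14620 and 15778. For these 3 genes replicate 1 was the lowest array. PSMB4 had 4832, 3990 and 5620, the largest SD of the group at 0.25, and was lowest in replicate 2.

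The base ATPases, which grip substrates and feed them into the core, were detected for all 5 measured members. PSMC1 had 3278, 3467 and 3912 in replicates 1, 2 and 3, and PSMC2 had 7129, 5393 and 7637. PSMC3 had 3377, 3748 and 2813, and was the only base ATPase that was lowest in replicate 3. PSMC4 had 1750, 1561 and 1716, with an SD of 0.09 log2 units. PSMC6 had 1571, 1264 and 2382, with an SD of 0.46, so that its highest array was 1.88 times its lowest. These last are the smallest and the largest spread among the measured ATPases.

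The large scaffolds of the base and PSMD4, 1 of its ubiquitin receptors, were detected. PSMD1, a large scaffold subunit, had 2586, 2659 and 2374 in replicates 1, 2 and 3. PSMD2, the other large scaffold, had 2635, 2707 and 3058. PSMD4, a receptor for ubiquitin chains, had 3637, 3652 and 3851. The SDs of these 3 genes lay between 0.05 and 0.12 log2 units on the probe sets used, under the median of 0.29 over all detected genes. Another probe set of PSMD4 had an SD of 0.23, and ADRM1, a further ubiquitin receptor of the base outside the symbol rule, had 0.71.

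Lid subunits were detected for all 6 measured genes. PSMD14, the metalloprotease that removes ubiquitin chains from substrates, had 4615, 5149 and 5959 in replicates 1, 2 and 3. PSMD6 had 2788, 2801 and 2675, with an SD of 0.04 log2 units. PSMD3 had 1274, 1803 and 933, with an SD of 0.47. PSMD6 and PSMD3, both scaffold subunits of the lid, are the steadiest and the most variable of the 12 PSMD genes, and PSMD3 has the largest SD of all 30. The lid scaffold subunits PSMD8, PSMD11 and PSMD12 follow. PSMD8 had 3304, 4653 and 3796. PSMD11 had 7601, 4759 and 6639. PSMD12 had 4272, 4188 and 5433. Their lowest arrays were replicate 1 for PSMD8 and replicate 2 for PSMD11 and PSMD12, so the lid genes shared no common low array.

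Chaperones that assemble the base were detected for PSMD5, PSMD9 and PSMD10. PSMD5 had 1224, 1161 and 1118 in replicates 1, 2 and 3. PSMD9 had 1214, 1013 and 777, and a log2 signal 2.27 ± 0.18 over the limit (SE from limma's fit, n = 3 arrays). PSMD10, also known as the oncoprotein gankyrin, had 1675, 1070 and 1876. PSMD5 and PSMD9 were highest in replicate 1, and PSMD10 was highest in replicate 3. PSMG1 and PSMG2 form a dimer that builds the alpha ring. PSMG1 had 2099, 2235 and 2849. PSMG2 had 5902, 5937 and 5991, an SD of 0.011 log2 units and the smallest spread of the 30. PSMF1, first described as an inhibitor of the core particle, had 1453, 1786 and 1230, lowest in replicate 3.

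For 14 of the genes several probe sets with a single symbol could be compared, and in 10 of these no such probe set fell under the limit on any array. Probe sets that list PSMA2 with a further gene were not used. They had 228, 244 and 221, and 37.9, 35.6 and 68.6. PSMB1, PSMD4, PSMD5 and PSMD9 each had 1 probe set that fell under it on at least 1 array. PSMB1 gave 6592, 6077 and 8733 on another probe set with the _s_at suffix, which marks designs shared by several transcripts, and 8.01, 49.98 and 13.4 on its only probe set without a suffix. PSMD4 gave 2679, 3499 and 3580 on one such shared design, 2833, 3072 and 3188 on another, and 11.1, 12.2 and 11.5 on the probe set without a suffix. For both genes the suffixed designs stood far above the limit and the plain design far under it. PSMD5 had 21.5, 8.11 and 43.2 on its other probe set, and with the probe sets combined by their median its distance to the limit was -0.21 log2 units. PSMD9 had 152.2, 196.4 and 177.3 on its other probe set, over the limit on 1 array.

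**Figure D3:**
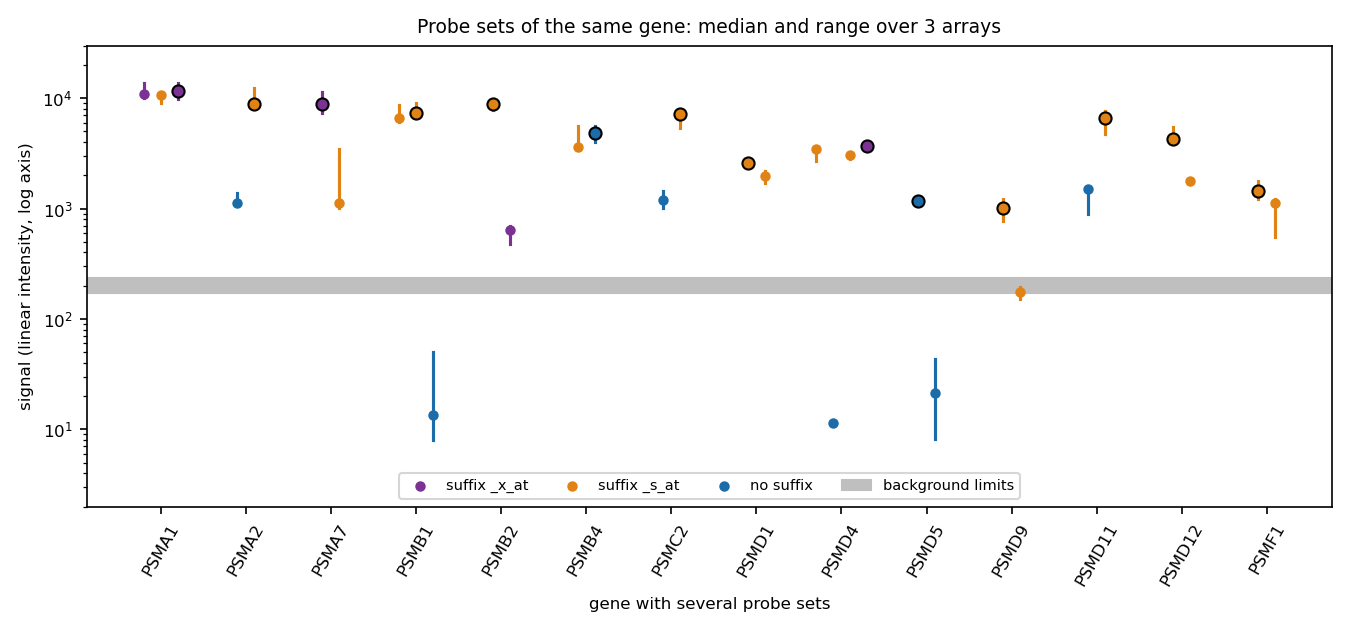
Signal of every single-symbol probe set (log axis, linear intensity) of the 14 proteasome genes with several, as the median (point) and range (line) over 3 arrays, coloured by suffix, with a black rim on the probe set used. Single probe sets of PSMB1, PSMD4 and PSMD5 lie under the band of background limits and 1 of PSMD9 reaches into it.

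Several probe sets of 1 gene read the same cultures, so their agreement on the high array can be described as well as their level. In 12 proteasome genes at least 2 probe sets lay above the limit on all arrays. Those probe sets shared their highest array in 9 of the 12 genes (75%) and their lowest in 8 (66.7%), beside 46.8% and 49.5% of 1456 detected genes. The 1456 genes were not matched to the 12 by signal, and the part of signal level in these shares was not tested. PSMA7 had 1012, 1134 and 3493 on its other probe set, highest in replicate 3 on both. PSMA2 had 1131, 1121 and 1386 on its other one, again with the array of replicate 3 on top. By contrast, PSMF1 had 1209, 558 and 1114 on its other probe set, which is lowest in replicate 2, whereas the chosen one is lowest in replicate 3. PSMD11 had 1571, 1494 and 901 on its other one, lowest in replicate 3 and not in replicate 2. PSMB2 had 697, 639 and 481 on its cross-hybridising probe set (_x_at), which was lowest in replicate 3, where the chosen one was lowest in replicate 1.

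In 5 further genes the other probe sets had the same lowest array as the chosen one. PSMA1 had 10100, 10997 and 13755 on one and 9076, 10634 and 10624 on another, lowest in replicate 1 on each. PSMB4 had 3597, 3422 and 5589 on its other probe set, and PSMC2 had 1187, 1014 and 1447, each lowest in replicate 2 like the chosen one. PSMD1 had 1967, 2187 and 1721 on its other one, lowest in replicate 3 as on the chosen one. PSMD12 had 1759, 1680 and 1814 on its other one, lowest in replicate 2 on both. The distance between the probe sets of a gene above the limit had a median of 1.04 log2 units over the 12 genes and 0.82 over the 1456.

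The array of replicate 3 gave the highest signal for most proteasome genes. Of the 30 genes, 18 (60%) were highest in replicate 3, beside 33.9% of all detected genes, and 7 (23.3%) were lowest there, beside 45.2%. Their median log2 signal in replicate 3 minus the mean of replicates 1 and 2 was 0.205, and -0.07 over all detected genes. Under a uniform displacement of the names the median of the 28 detected proteasome genes was 0.106, with some read from the same signals. Replicate 1 was the lowest array for 14 genes and the highest for 4, beside 18.5% and 29.3% of detected genes. Replicate 2 was the lowest for 9 and the highest for 8, beside 36.4% and 36.8%. After quantile normalization the count highest in replicate 3 was 15 of 30 (50%), beside 36.7% of detected genes, the count lowest there was 11 (36.7%), beside 41.2%, and the median difference was 0.062, beside -0.03. The 3 arrays are 1 group, so this difference has no test.

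Brightness moved with it. Detected genes were divided by mean signal into 4 bins of 1233, which sets signals of different probes side by side. In the brightest bin the median difference was 0.09 log2 units and 48.7% were highest in replicate 3. That bin held 23 of the proteasome genes, of which 16 (69.6%) were highest in replicate 3, with a median of 0.24. The next bin held the other 7, of which 2 (28.6%) were highest there, with a median of -0.09, close to the 32% and -0.08 of all genes in that bin. On the array of replicate 3 the 100 brightest probe sets held 15.5% of all signal, against 11.5% and 12.6% in replicates 1 and 2, and LYZ was also highest there. The part of these in the result was not tested.

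The groups of subunits differed in how many members were highest in replicate 3. Of 10 core genes, 8 were highest in replicate 3 and none were lowest there, with a median difference of 0.355 log2 units, beside 33.9% and 45.2% of all detected genes. After quantile normalization 5 of 6 alpha and 2 of 4 beta genes were highest in replicate 3, and 1 alpha and 2 beta genes were lowest there. All 10 core genes lay in the brightest bin, where 48.7% of genes were highest in replicate 3, whereas the 7 genes of the next bin were PSMC4, PSMC6, PSMD3, PSMD5, PSMD9, PSMD10 and PSMF1. Of 17 genes of the regulatory particle and its chaperones (PSMC and PSMD), 8 were highest and 6 lowest, with a median of 0.079. Whether the core and the regulatory genes differ was not tested. The 6 alpha subunits had a median of 0.52 log2 units, and 0.26 after quantile normalization, with 5 of 6 highest in replicate 3 under either scale. The 4 beta subunits had 0.27, and -0.01 after quantile normalization, so their direction depends on the scaling. PSMC6 (0.76) and PSMA4 (0.69) had the largest differences upwards, and PSMD3 (-0.70) and PSMD9 (-0.51) the largest downwards.

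**Figure D4:**
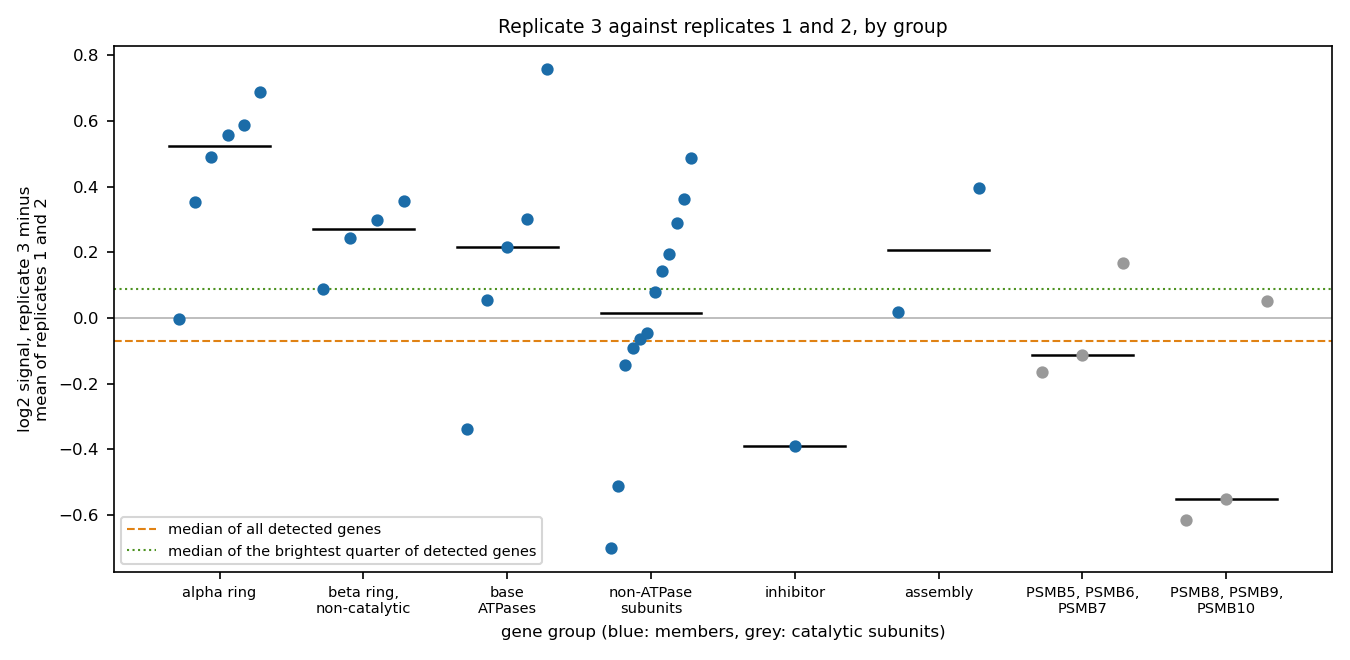
Log2 signal in replicate 3 minus the mean of replicates 1 and 2 for each proteasome gene (blue) and the catalytic subunits (grey), with group medians as bars, the median of all detected genes (-0.07, dashed) and of their brightest bin (0.09, dotted). The alpha subunits have a median of 0.52 and PSMB8, PSMB9 and PSMB10 one of -0.55, with PSMB10 itself at 0.05. All values are before quantile normalization.

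The spread between cultures had a median SD of 0.22 log2 units over the proteasome genes and 0.29 over all detected genes. In the brightest of the 4 bins it was 0.26. The median absolute difference per gene was 0.22 between replicates 1 and 2, 0.25 between 1 and 3 and 0.32 between 2 and 3. Over all detected genes those values were 0.26, 0.33 and 0.44, so the order of the pairs was the same.

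The catalytic subunits of the beta ring, which complete the particle, were highest in replicate 3 in 1 of 6 genes and lowest there in 3, beside 33.9% and 45.2% of all detected genes. All 6 lay in the brightest bin, where 48.7% of genes were highest in replicate 3. PSMB5 had 2936, 3544 and 2980 in replicates 1, 2 and 3, PSMB6 had 2887, 2600 and 2444, and PSMB7 had 6138, 5102 and 6279. The subunits that replace them under IFN-γ are PSMB8, PSMB9 and PSMB10. PSMB8 had 4646, 4894 and 3115, PSMB9 had 9907, 9909 and 6769, and PSMB10 had 3829, 5760 and 4865. PSMB8 and PSMB9 were lowest in replicate 3, with differences of -0.61 and -0.55 log2 units to the mean of replicates 1 and 2, whereas PSMB10 had 0.05 and was lowest in replicate 1. Of the alpha subunits, 5 of 6 were highest in replicate 3. The difference between these groups was not tested, and it was not examined after quantile normalization.

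Partners of the proteasome were detected for 35 of 37 measured genes of the list (94.6%), beside 41.2% of all genes. They include activators, receptors, assembly factors, ubiquitin genes and regulators. POMP, the maturation factor of the core particle, had 11452, 10193 and 16006 in replicates 1, 2 and 3. It was highest in replicate 3, as were 48.7% of the genes in the brightest bin, where it lies. SEM1, a small lid subunit outside the symbol rule, had 6355, 5431 and 4226. PSME1, a subunit of the IFN-γ-inducible activator, had 5099, 5951 and 6156. PSME2, its partner subunit, shares its probe set with another gene in the annotation and was left unnamed.

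NFE2L1 and NFE2L2, introduced above as factors that bind the antioxidant response element, were both detected. NFE2L1, read from a cross-hybridising probe set, had 2220, 3022 and 1709 in replicates 1, 2 and 3, lowest in replicate 3. Its other probe sets had 1156, 1582 and 999, also lowest there, and 941, 1096 and 1112, which was highest there, so its direction depends on the probe set. NFE2L2 had 2444, 1532 and 3477, highest in replicate 3. Of the proteasome genes with an antioxidant response element core in their promoter window, PSMA4, PSMB3, PSMD12, PSMG1 and PSMG2 were highest in replicate 3, while PSMD1, PSMD3, PSMD5 and PSMD9 were lowest there and PSMC4 was highest in replicate 1. Over all detected genes 33.9% were highest and 45.2% lowest in replicate 3. Some of these differences were small, with 0.017 log2 units for PSMG2, -0.09 for PSMD5 and -0.14 for PSMD1. A link between these directions and the 2 factors was not tested. Of the 35 detected partners, 14 (40%) were highest in replicate 3 and 18 (51.4%) lowest, with a median difference of -0.11 log2 units, close to the 33.9%, 45.2% and -0.07 of all detected genes.

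Of the partners, 6 detected genes had a larger SD than any of the 30 proteasome genes. The ubiquitin-activating enzymes UBA6 and UBA1 had SDs of 0.86 and 0.77 log2 units. UBA6 had 487, 345 and 1107, highest in replicate 3, whereas UBA1 had 3389, 4550 and 1619, lowest there. PSME3, a nuclear activator subunit, had an SD of 0.76 on the cross-hybridising design used, and 0.31, 0.997 and 0.27 on its other probe sets, so its larger spread does not hold on 2 of them. ADRM1 had an SD of 0.71, NFE2L2 0.59 and the adaptor FAF1, read from a cross-hybridising design, 0.56. The partners not detected were UBQLN4, a shuttle of ubiquitinated proteins, with 87.8, 213 and 77.4, and AKIRIN2, a factor for nuclear import of proteasomes, with 78.7, 54.2 and 35.7.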

How the data were processed

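The authors' deposited values are linear signal intensities per probe set, 1 array per culture. The submitters' processing notes name Affymetrix Expression Console 1.1 with MAS5. After trimming 2% at each end, every array averaged 500.3, a shared scale. Presence calls were not used here.

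Names were reassigned. After 6 empty rows were dropped, the 22277 values were read as 15 unnamed, the first 100 of the numbered probe sets, 493 with lower numbers, 21622 others in file order and 47 unnamed. Probe sets with 1 symbol (19065) named 11963 genes, 1043 listed several symbols and 2169 had none assigned. Symbols were updated by gene ID through RefSeq (GRCh38.p14), which was used for names and promoter windows alone.

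Where a gene had several probe sets, the brightest by mean log2 stood for it. For the test, log2 signal minus the limit entered an intercept-only model with trended variance (limma 3.58.1 under R 4.3.3), and the code was tested on simulated data. The order of names was worked out from these values. The limit was treated as known. The alternatives were the order of names, combination of probe sets, suffixes, limit, scaling, pseudocount, variance trend and each replicate left out. Every proteasome gene was to be named. Of the 45 partners on their list, those not detected, those more variable than every proteasome gene and a fixed set were to be named. The members and lists were chosen with earlier results of these data known. Protein sequences were not analysed here.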

Additional observations from a re-analysis of the deposited data

How the results depend on the processing

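The detection of the 30 proteasome genes moved with the order of the names and with leaving out suffixed probe sets, and little with other choices. All 30 were detected with the 90th percentile limit, the other list of restricted genes, quantile normalization, a pseudocount of 16, no variance trend and any 1 replicate left out. With the median over probe sets 29 were detected, and 28 under a uniform displacement of the names by 487 rows. That displacement moved PSMA1 (5.83 to 5.65), PSMA4 (5.50 to 5.31) and PSMG2 (4.86 to 4.68) only by the change of the limit. For such genes it reads the same signals as the inferred order and is no separate check. Leaving out suffixed probe sets gave 18 of 20 measured genes, with PSMB1 at -3.10 and PSMD4 at -3.70 log2 units relative to the limit, and 3089 of 8361 genes in all, where fewer genes had a probe set. With the names as deposited 9 of 30 were detected and 1144 of all genes, beside 4932 under the inferred order. The limits as deposited were also higher, at 1628, 1500 and 1600. At the limits of the inferred order, 35 of the 48 proteasome probe sets lay above on every array with the names as deposited. The partners detected were 35 of 37, beside 41.2% of all genes. With the median over probe sets they were 31 (38.0% of all genes), and under the uniform displacement 32 (37.2%). With the names as deposited they were 8 (9.56%), and without suffixed probe sets 17 of 23 (36.9%). PSMD5 lay at -0.21 with the median over probe sets, and under the uniform displacement PSMD3 lay at -0.50 and PSMD6 at -2.19. As deposited, values relative to the limit were -0.98 for PSMA1, -7.94 for PSMA3, -1.19 for PSMC1, -2.57 for PSMC2, -1.08 for PSMC6, -1.30 for PSMD10, -3.86 for PSMD11, -0.43 for PSMD12, -1.93 for PSMD2, -0.40 for PSMD3, -2.44 for PSMD4, -1.98 for PSMD5, -1.36 for PSMD6, -3.07 for PSMD8, -1.42 for PSMF1 and -2.05 for PSMG1. The count of proteasome genes lowest in replicate 3 was 7 of 30, beside 45.2% of all detected genes. After quantile normalization it was 11 of 30, beside 41.2%. It was 1 of 9 as deposited and 4 of 18 without suffixed probe sets, where the share of all detected genes was not computed. The median SD, 0.22 log2 units, was between 0.154 and 0.228 when a replicate was left out. For the changes with the names and the scaling the cause was not tested. No paired analysis was possible because all arrays belong to 1 group.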
